A study of Mus musculus with 6 samples.

Results

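The enzyme family that methylates lysine 4 of histone H3 and the core subunits of its complexes were examined as 10 genes: Kmt2a, Kmt2b, Kmt2c, Kmt2d, Kmt2e, Setd1a, Setd1b, Wdr5, Ash2l and Rbbp5. They were taken by symbol from 21883 protein-coding genes of the main chromosomes in the RefSeq gene table for GRCm38.p6, the same assembly as the mm10 build of the peaks. The measurement was chromatin immunoprecipitation with sequencing for H3K4me3, a mark of active and poised promoters. The cells were Lgr5-positive progenitors of the cochlea, sorted by green fluorescence from C57BL/6 mice on postnatal days 0 to 3 of the Lgr5-EGFP-creERT2 line, in which all groups carry the reporter. The cochleae were cultured in a medium with B27, N2, IGF-1, heparin sulfate, bFGF and EGF. Of the 4 libraries, 2 came from cells treated for 12 h with neomycin, an aminoglycoside antibiotic that kills hair cells, and 2 from untreated cells; the 2 input libraries were not analysed here. Nothing in the labels ties the replicates to different cultures or animals, so the spread between them may be technical. The sorted populations were measured in bulk, so fewer marked cells and less mark per cell cannot be told apart.

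Methylation of this lysine is carried out by large proteins with a catalytic SET domain, among them Kmt2a to Kmt2d, Setd1a and Setd1b, which work in complexes with Wdr5, Rbbp5, Ash2l and Dpy30. Kmt2e is grouped with them by name, but its SET domain is divergent. Kmt2a and Kmt2b bind unmethylated CpG dinucleotides through a CXXC domain and act at promoters of developmental genes. Kmt2c and Kmt2d mainly place the monomethyl mark at enhancers, and Setd1a and Setd1b place much of the trimethyl mark at active promoters.

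Each library has its own list of peaks, with 14203 and 11545 peaks in neomycin replicates 1 and 2 and 15938 and 10520 in untreated replicates 1 and 2. Peaks differed in length between the lists, with medians of 70.0 and 142 bp with neomycin and 310.5 and 340 bp without, and the shortest peaks were 48, 110, 187 and 234 bp. For this reason the summed length of the peaks touching a start site was divided by the median of its own list, which gives a relative length, and lengths in bp are not compared between libraries. The window was 1 kb either side of the start. A doubt bears on every comparison of the groups: the untreated lists were deposited under names with H3K4me2, although their labels state H3K4me3 and an identical antibody. The labels were followed here. The lists hold no read totals, so depth is unknown. Of 6 markers of Lgr5-positive supporting cells, 5, 6, 6 and 6 had a start-site peak in the 4 libraries (neomycin 1, neomycin 2, untreated 1 and untreated 2, the order used below), with Lgr5 among them in all 4. Of 5 mesenchyme and fibrocyte markers the counts were 0, 0, 3 and 4, of 5 hair cell markers 1, 0, 3 and 1, of 5 neuron markers 1, 1, 3 and 2, and of 5 macrophage and blood markers 0 in every library. Mesenchyme markers thus had start-site peaks in the untreated libraries alone, and the part of other cells in the differences below was not tested.

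The genes of the H3K4 methylation machinery were widely marked in these progenitors. In 7 of the 10 a peak touched the start site in all 4 libraries, against 15.9% of all protein-coding genes. These were Kmt2a, Kmt2b, Kmt2c, Setd1a, Setd1b, Wdr5 and Rbbp5. Per library, 8, 8, 9 and 8 of the 10 were marked at the start, against 33.9%, 32.7%, 46% and 35.4% of all genes. With the whole gene and 1 kb either side, 9 of 10 had a peak in every library, against 19.8% of all genes. The peaks at the members had a pileup (the height of the signal at the summit) between 5 and 24, and the median over each whole list was 7, 11, 13 and 11. When only peaks with a -log10 q of at least 10 were kept, none of the 21883 genes was marked in all 4 libraries. With the lists reduced to equal length by the caller's q, 3 of the 10 members were marked in all 4 libraries (Kmt2a, Kmt2b and Wdr5, against 10.9% of all genes).

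**Figure D1:**
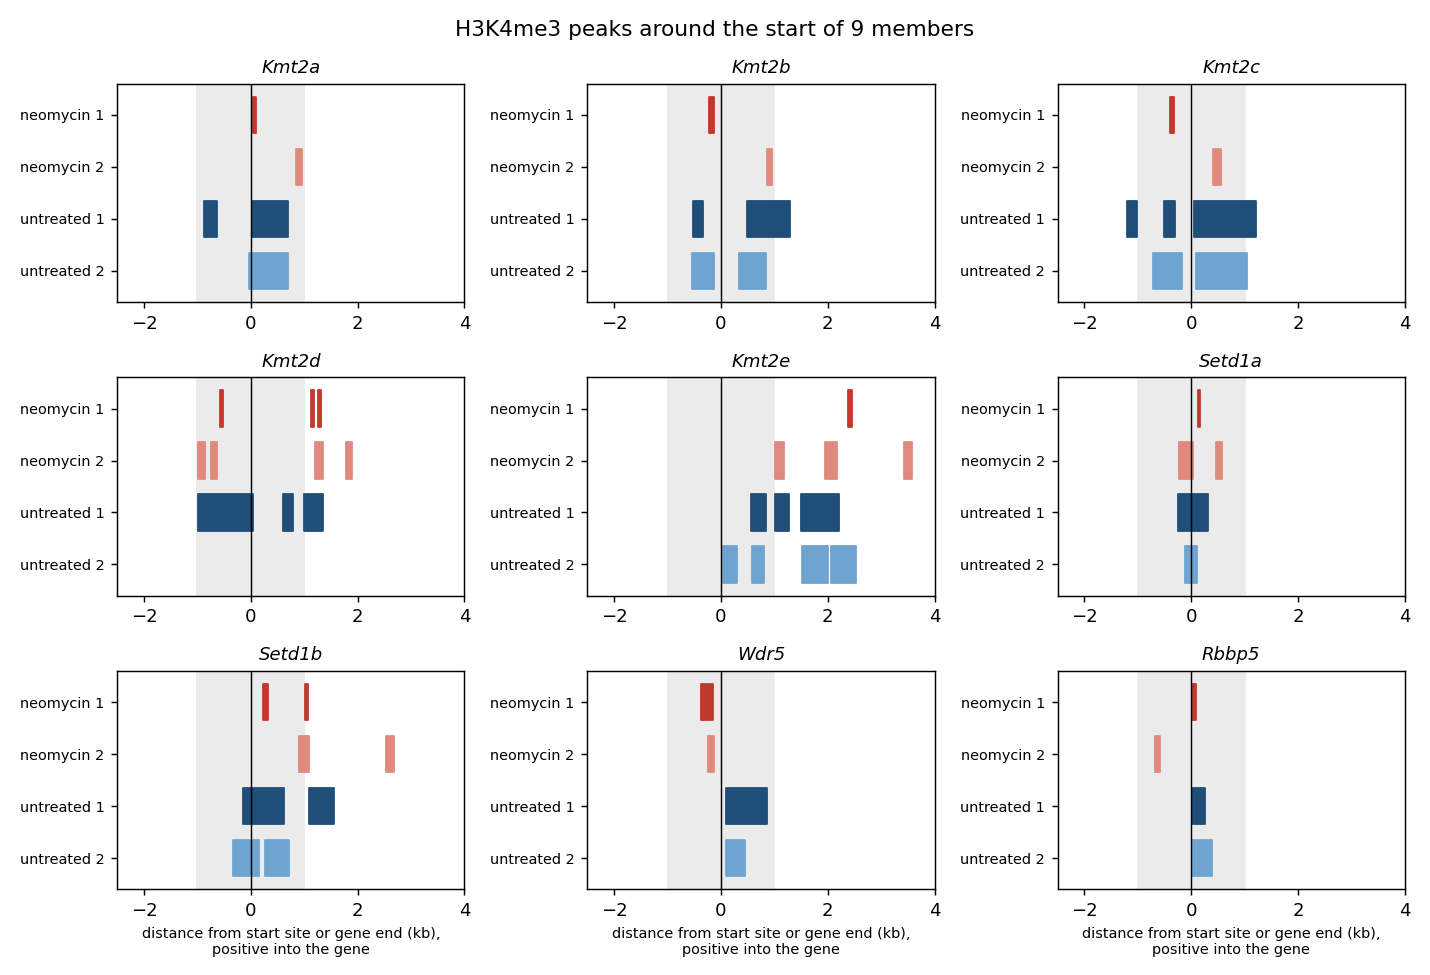
Peaks of each library around the start of 9 members, as distance in kb from the RefSeq start site or, for Kmt2b, Kmt2e and Setd1b, from the gene end used in its place, with positive values into the gene. Bars are single peaks and grey marks the window of 1 kb either side. Ash2l is left out because its peaks lay 24.3 to 25.4 kb from the gene end used, the lower one. Start-site peaks of the 2 untreated replicates have bases in common at all 8 members marked in both, and those of the 2 neomycin replicates at Wdr5 alone of 8; Kmt2d has no peak in untreated replicate 2.

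Kmt2a and Kmt2b, the CpG-binding methyltransferases, carried longer marks relative to their lists in both untreated libraries than in either neomycin library. Kmt2a lies on chromosome 9 from 44803355 to 44881352, with its start at 44881289 on the minus strand, inside the lncRNA gene Gm39326. At that start the peaks of neomycin replicate 1 summed to 48 bp and those of replicate 2 to 110 bp, which are the shortest lengths these 2 lists contain. In the untreated libraries they summed to 910 and 725 bp. The relative lengths were 0.686 and 0.775 with neomycin and 2.93 and 2.13 without, so the groups did not overlap. The summits of the untreated peaks over the gene stood at percentiles 84.8 and 96.7 of the pileup in their lists, and those of the neomycin peaks at 28.4 and 21.9. The log2 difference, neomycin minus untreated, was -1.78 ± 0.61 (SE, n = 2 libraries a group), with an adjusted p of 0.495 in limma with Benjamini-Hochberg adjustment over 3484 promoters. Kmt2b lies on chromosome 7 from 30568855 to 30589056 and was read at its upper end, which it shares within 1 kb with Zbtb32, Gm32082 and Mir3569. Its peaks there summed to 100 and 110 bp with neomycin and to 993 and 904 bp without, or 1.43, 0.775, 3.20 and 2.66 medians. Both untreated values again lay above both neomycin values, with a log2 difference of -1.47 ± 0.63 and an adjusted p of 0.56 in the same limma comparison. With lists of equal length the difference at Kmt2b was -0.13 (limma, adjusted p 0.964) and the groups overlapped.

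Kmt2c, the enhancer methyltransferase whose gene spans 227 kb of chromosome 5 from 25271795 to 25498855, had the greatest difference among the 7 members marked in all 4 libraries. Peaks at its start, at 25498783 on the minus strand, summed to 76 and 161 bp with neomycin and to 1367 and 1513 bp without. The relative lengths were 1.09 and 1.13 against 4.40 and 4.45, and the replicates of each group lay close together in length. The neomycin values, however, came from single peaks on opposite sides of the start that share no base. That of replicate 1 lay at -401 to -326 bp, with a pileup of 5, the lowest of its list. That of replicate 2 lay at 402 to 562 bp. The untreated values stood at percentiles 98.7 and 99.7 of all start-site lengths in their libraries, and the neomycin values at 31.1 and 42.1. On average the relative length was 3.99-fold greater in the untreated cells, a log2 difference of -2.00 ± 0.61 (SE). This did not pass limma with Benjamini-Hochberg adjustment (adjusted p 0.48), although only 0.344% of the promoters tested had a lower value. Untreated replicate 1 had a further peak of 187 bp whose near edge lay 1.02 kb upstream, just outside the window.

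The RefSeq promoters (GRCm38.p6, 250 bases before to 50 after the start) of Kmt2a, Kmt2c and Rbbp5 are shown because they span the range of CpG density among the members and differ in the length of their marks. Capitals mark CpG dinucleotides.
Kmt2a, chr9:44881240-44881539, minus strand: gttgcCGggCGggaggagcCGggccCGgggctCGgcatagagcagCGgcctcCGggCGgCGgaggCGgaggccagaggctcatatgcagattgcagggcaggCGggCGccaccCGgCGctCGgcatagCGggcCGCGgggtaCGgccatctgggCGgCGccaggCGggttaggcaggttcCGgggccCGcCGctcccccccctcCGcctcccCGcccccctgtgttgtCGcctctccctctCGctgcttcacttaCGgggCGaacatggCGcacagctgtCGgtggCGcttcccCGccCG
Kmt2c, chr5:25498734-25499033, minus strand: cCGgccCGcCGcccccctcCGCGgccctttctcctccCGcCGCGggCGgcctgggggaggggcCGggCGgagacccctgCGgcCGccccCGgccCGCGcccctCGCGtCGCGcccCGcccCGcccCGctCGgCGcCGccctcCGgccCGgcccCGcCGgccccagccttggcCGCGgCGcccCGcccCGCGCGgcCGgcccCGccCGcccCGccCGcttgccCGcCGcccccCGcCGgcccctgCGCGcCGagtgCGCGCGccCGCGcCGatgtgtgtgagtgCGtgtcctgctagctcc
Rbbp5, chr1:132477117-132477416, plus strand: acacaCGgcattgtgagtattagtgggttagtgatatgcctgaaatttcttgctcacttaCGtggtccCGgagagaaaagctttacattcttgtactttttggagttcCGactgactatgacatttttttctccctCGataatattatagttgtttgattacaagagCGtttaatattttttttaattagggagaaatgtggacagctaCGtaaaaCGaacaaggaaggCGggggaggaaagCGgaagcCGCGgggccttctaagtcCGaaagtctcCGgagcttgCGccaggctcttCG
Kmt2c has 56 CpG dinucleotides in these 300 bases, more than 99.8% of the 17491 protein-coding promoters in the RefSeq table, Kmt2a has 36 and Rbbp5 16. The median over all promoters was 13 and over those marked in all 4 libraries 25. Peaks left most of the Kmt2c stretch uncovered: 79 of its 300 bases lay in a peak of either untreated library and 0 in a neomycin peak. The start base itself was outside the peaks of all 4 libraries at Kmt2c, with untreated peaks on both sides of it. Among genes with a tabled start that were marked in a library, the start base was inside a peak in 4.26% and 5.07% with neomycin and 18.6% and 22.3% without.

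Across all promoters, the share marked in all 4 libraries was higher at higher CpG counts, from 0.589% of promoters with 0 to 4 CpG dinucleotides to 35.8% of those with 25 or more. Of the 6 members with a tabled promoter, Kmt2a, Kmt2c, Kmt2d (27) and Setd1a (35) were in the top class, Wdr5 had 22, and all 6 were above the median. The Kmt2a, Kmt2c, Kmt2d and Wdr5 promoters held 5, 12, 4 and 2 matches to GGGCGG, the binding motif of Sp and Klf factors (both strands, overlaps counted), which 46.3% of all promoters contain. None of the motifs CCAAT (39.2% of promoters), TATAAA (13.3%), CCGGAAG (11.9%) and CACGTG (7.91%), searched on both strands, was found in the 6.

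**Figure D2:**
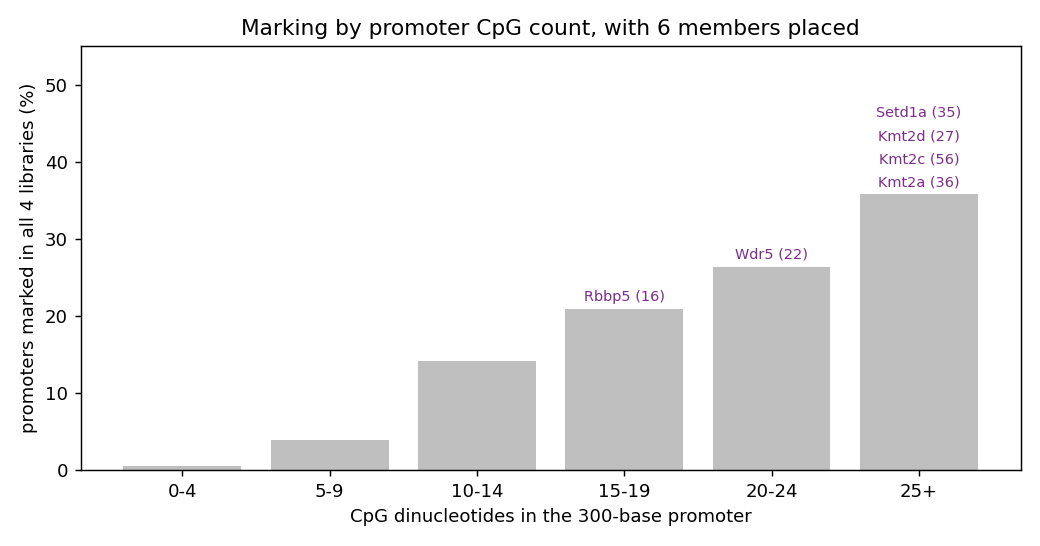
Share of protein-coding promoters marked in all 4 libraries (vertical axis, %) by the number of CpG dinucleotides in 300 bases (horizontal axis). The 6 members with a tabled promoter are written above their class with their own counts; the share goes from 0.589% in the lowest class to 35.8% in the highest, which holds 4 of the 6.

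Kmt2d, the close relative of Kmt2c, was the member with the greatest spread between the untreated replicates. The gene lies on chromosome 15 from 98831669 to 98874077, with the tabled start at 98871205 on the minus strand. This start is inside the gene span, so window peaks upstream of it are within the gene too. Untreated replicate 1 had 3 peaks at this start that summed to 1581 bp, or 5.09 medians, the highest relative length of any member. The sum counts whole peaks, among them 1 of 354 bp that reached the window only at 1000 bp downstream. Inside the window lay 993 bases upstream and 235 downstream, and by such bases Kmt2d did not rank above Kmt2c. Untreated replicate 2 had no peak in the whole gene, and its nearest one lay 25.8 kb beyond the gene. The neomycin libraries had 48 and 243 bp at the start (0.686 and 1.71 medians), all of it upstream. Both also had 2 peaks downstream of the start whose near edges lay 1.13 to 1.78 kb from it. In the same stretch lay the 354 bp peak of untreated replicate 1, which is in the sum because it touched the window. At the far end of the gene, within 1 kb of Prkag1, neomycin replicate 1 and untreated replicate 1 had peaks of 48 and 187 bp. Since Kmt2d lacked a peak in a library, it was not part of the limma comparison.

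Kmt2e, with its divergent SET domain, had peaks within 1 kb of the gene end used in the untreated libraries only. That pattern was found in 4.66% of all genes, and the reverse, in 1.37%, was found in no member. The gene lies on chromosome 5 from 23433036 to 23504235 and was read at its lower end, in a region that the lncRNA gene 5031425E22Rik overlaps. That end was taken because it was marked in more libraries, which rested on the untreated peaks, so the choice of end is not independent of the pattern; no library had a peak within 1 kb of the upper end. The window held 272 and 495 bp of peaks in the untreated libraries, or 0.876 and 1.46 medians. The neomycin peaks lay further into the gene: neomycin replicate 2 had 3, the nearest 1004 bp from the end and so 4 bp short of the window, and replicate 1 had a single peak of 67 bp that began 2.39 kb in. The highest peaks of the untreated libraries were also beyond the window. They had a pileup of 24 in replicate 1, at percentile 97.0 of its list, and 14 in replicate 2. With a window of 2.5 kb, Kmt2e was marked in all 4 libraries, as were 17.9% of all genes. Its untreated relative lengths were then above the neomycin ones, as at 15.4% of the promoters so marked.

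Setd1a and Setd1b, which share the role of promoter trimethylation, differed in how their marks compared between the groups. At Setd1a, on chromosome 7 from 127777389 to 127800122 with its start at the lower coordinate, the peaks summed to 48 and 359 bp with neomycin and to 560 and 234 bp without. The relative lengths were 0.686 and 2.53 against 1.80 and 0.688, so the 2 replicates of each group lay further apart than the group means. The log2 difference was 0.24 ± 0.71 (limma, adjusted p 0.958). The start base was inside a peak in 3 of the 4 libraries, and none of the other members with a tabled start had this in more than 1. At Setd1b, on chromosome 5 from 123142040 to 123168630, the lower end is shared within 1 kb with Rhof. Its peaks summed to 102 and 188 bp with neomycin and to 774 and 939 bp without, or 1.46 and 1.32 against 2.49 and 2.76 medians. The groups did not overlap, and the log2 difference was -0.92 ± 0.61 (limma, adjusted p 0.732). It was -0.44 with a window of 2.5 kb and -1.37 when bases of the window covered by peaks were counted. The difference between Setd1a and Setd1b was not tested.

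**Figure D3:**
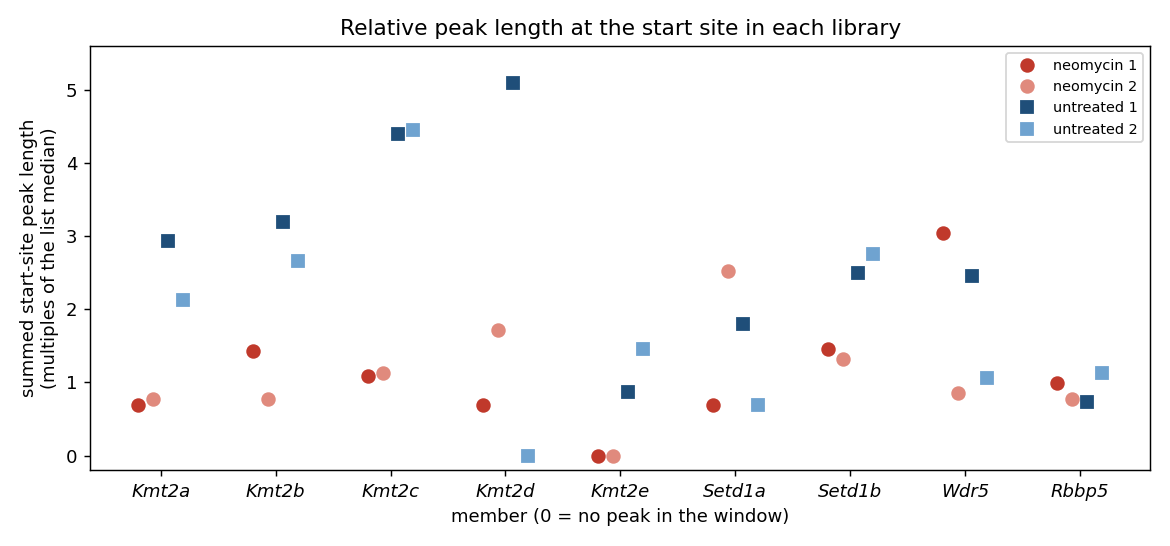
Summed length of start-site peaks in multiples of the median peak length of the same list (vertical axis) for 9 members in each library, with circles for neomycin and squares for untreated cells. Both squares lie above both circles at Kmt2a, Kmt2b, Kmt2c, Setd1b and Kmt2e, where 0 means no peak in the window; at Kmt2d one square is at 5.09 and the other at 0.

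At the core subunits Wdr5 and Rbbp5 the relative lengths of the groups overlapped. Wdr5, the propeller-shaped subunit that contacts the SET enzymes, lies on chromosome 2 from 27515147 to 27536535 on the plus strand. Its peaks were 213 and 121 bp long with neomycin and 761 and 361 bp without, a single peak in each library, and the relative lengths of 3.04 and 0.852 against 2.45 and 1.06 overlapped. The log2 difference was -0.0026 ± 0.70 (limma, adjusted p 1.0). Its position differed, however: both neomycin peaks lay wholly before the start, with summits at -298 and -179 bp, and both untreated peaks wholly after it, with summits at 252 and 274 bp. No base was shared between a neomycin and an untreated peak. Of 2845 genes with a tabled start that were marked in all 4 libraries, 0.457% (13 genes) had this arrangement, which was looked for after the Wdr5 peaks had been seen. Both untreated libraries were wholly downstream at 44.4% of these genes, and the neomycin libraries wholly upstream at 13.3% and 14.6%. The promoter is shown because it holds the inner edge of both neomycin peaks; capitals mark bases inside a peak of either neomycin library, and untreated peaks cover 0 of the 300 bases.
Wdr5, chr2:27514897-27515196, plus strand: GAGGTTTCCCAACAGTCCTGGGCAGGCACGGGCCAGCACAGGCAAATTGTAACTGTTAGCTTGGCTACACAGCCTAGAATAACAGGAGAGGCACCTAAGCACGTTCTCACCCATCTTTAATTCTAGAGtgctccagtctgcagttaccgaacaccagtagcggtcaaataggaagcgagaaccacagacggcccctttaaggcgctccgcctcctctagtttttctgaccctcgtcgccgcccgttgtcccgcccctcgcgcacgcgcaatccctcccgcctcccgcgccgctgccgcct
The 128 capitals are the first bases of the stretch, and most of the 22 CpG dinucleotides come after them.

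Rbbp5, which with Ash2l stimulates the SET domain, lies on chromosome 1 from 132477348 to 132505665, with the lncRNA gene 6030442K20Rik ending within 1 kb of its start. The peaks were 69 and 110 bp long with neomycin and 227 and 384 bp without, a single peak in each library. The relative lengths of 0.986 and 0.775 against 0.731 and 1.13 overlapped, with a log2 difference of -0.06 ± 0.62 (limma, adjusted p 0.988). Neomycin replicate 2 stood apart in position, with its summit at -605 bp from the start, while the other 3 summits were 71, 133 and 184 bp downstream. Ash2l, on chromosome 8 from 25816000 to 25847694, had no peak within 1 kb of either gene end in any library. With neither end marked, the lower one, within 1 kb of an end of Star, was used by rule and need not be the start. All 4 libraries had a peak of 153, 221, 416 and 291 bp inside the gene, with edges 6.96 to 7.21 kb from the upper end, and untreated replicate 2 had another of 234 bp. These internal peaks are where Ash2l was marked in all 4 libraries, and no other gene of the annotation lies within 1 kb of them.

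Relative length was greater in both untreated libraries than in either neomycin library at 4 of the 7 members marked in all 4 libraries. These were the SET enzymes Kmt2a, Kmt2b, Kmt2c and Setd1b, but not the SET enzyme Setd1a. The same pattern was found at 16.1% of the 3484 promoters marked in all 4 libraries. The reverse, at 22.3% of them, was found at 0 of the 7. The median log2 difference of the 7 was -0.92, and that of all 3484 promoters 0.12. None of the 7 passed limma at an adjusted p of 0.05, and neither did any other promoter: 0 of 3484 were called in each direction (0% and 0%), with 3.73% lower and 4.28% higher with neomycin at an unadjusted p under 0.05. At that unadjusted level Kmt2a, Kmt2b and Kmt2c were lower with neomycin. Among promoters with 25 or more CpG dinucleotides, 19.8% had the untreated values above the neomycin values without overlap, against 6.67% to 12.8% in the lower classes; the part of CpG density in the members' pattern was not tested.

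A gene with this pattern in 2 against 2 libraries keeps it when 1 library is left out. Leaving out libraries therefore could not remove any of the 4 genes. Each time 1 other member joined them (19.8% to 35.7% of promoters). Without scaling by the list median, 6 of 7 members were longer in both untreated libraries, but so were 80.2% of promoters, and the median log2 difference of all promoters moved to -1.59. Centring each library on its promoters left the same 4 (20.8% of promoters). With lists of equal length only Kmt2a of the 3 members still marked in all 4 libraries had the pattern (15.6% of promoters). With at least 200 bp of the window covered in each library, no member was marked in all 4, and only 2.09% of all genes were. In height the members were closer to the rest: the pileup percentile was higher in both untreated libraries at 3 of 7 (Kmt2a, Kmt2c and Setd1b), against 29.3% of promoters.

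**Figure D4:**
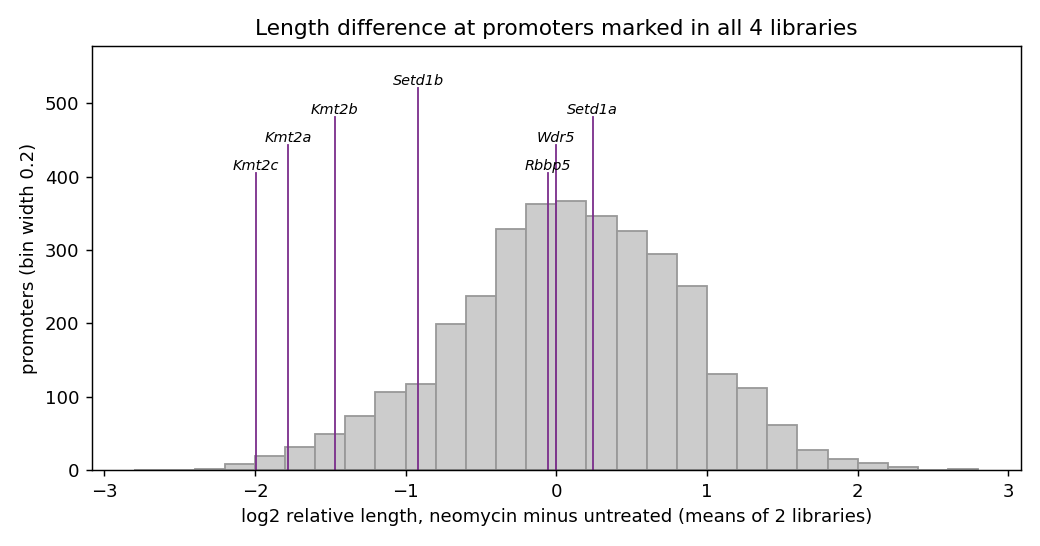
Distribution of the log2 difference in relative length, neomycin minus untreated, over the 3484 promoters marked in all 4 libraries (grey bars, number of promoters in bins of 0.2), with lines for the 7 members tested. Kmt2c, Kmt2a, Kmt2b and Setd1b lie at -2.00, -1.78, -1.47 and -0.92, and Rbbp5, Wdr5 and Setd1a near 0.

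At most of these genes the neomycin replicates had no base in common among peaks touching the window of 1 kb. Of 8 members marked in both neomycin libraries, such peaks of the 2 replicates shared at least 1 bp at Wdr5 alone, against 61.8% of all promoters marked in both. The window edge matters here. At Setd1b a replicate 1 peak at 1014 to 1068 bp, outside the window, lay within the replicate 2 peak at 901 to 1088 bp. At Kmt2d peaks of both replicates outside the window also overlapped, at 1262 to 1309 bp and 1206 to 1352 bp. The untreated replicates shared bases at 8 of 8 members, against 96.5%. Between the groups, neomycin replicate 1 shared bases with untreated replicates 1 and 2 at 6 of 8 and 5 of 7 members (82.4% and 78.3% of promoters). Neomycin replicate 2 did so at 4 of 8 and 2 of 7 (84.2% and 79.4%). The neomycin peaks at the members were short, and at 2 and 3 of the 7 members in replicates 1 and 2 the summed length equalled the shortest peak of the list, against 9.47% and 9.99% of promoters. The part of peak length in the low sharing was not tested.

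**Figure D5:**
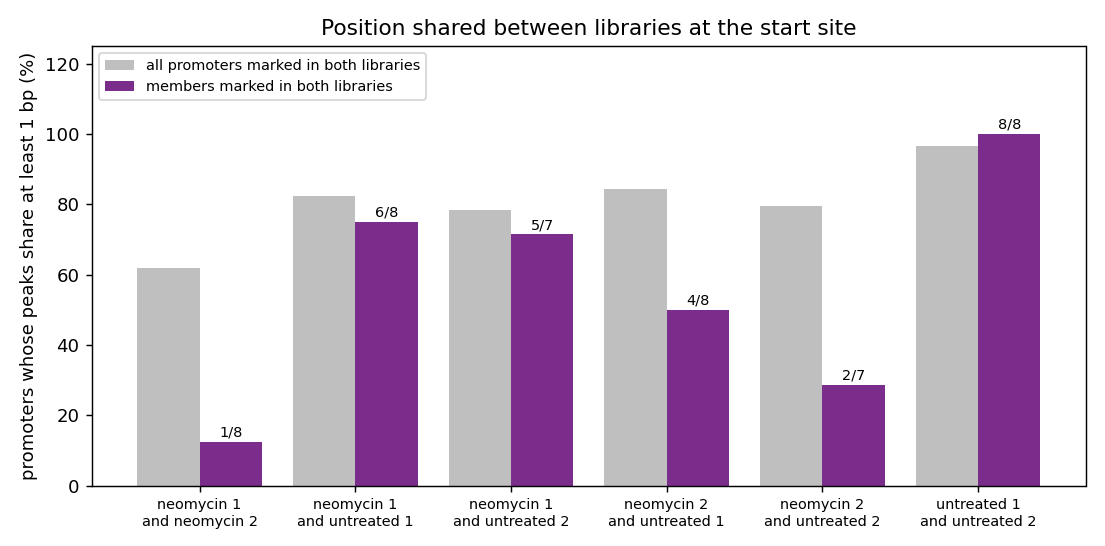
Share of promoters marked in both libraries of a pair whose start-site peaks have at least 1 bp in common (vertical axis, %), for all promoters (grey) and for members (purple, with counts). The neomycin pair stands at 61.8% of all promoters and 1 of 8 members, the untreated pair at 96.5% and 8 of 8.

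Partners of these complexes and other lysine methyltransferases were read in the same way. Of 21 such genes, 7 had a start-site peak in all 4 libraries (15.9% of all genes), and 17 in at least 1 (53.9% of all genes). The 7 were Men1, which encodes menin, and Psip1, which tether Kmt2a to chromatin, Paxip1 and the demethylase Kdm6a of the Kmt2c and Kmt2d complexes, the Setd1 cofactor Bod1l, and the methyltransferases Setd7 and Ash1l. None of these 7 had relative lengths that did not overlap between the groups in either direction. Over all promoters marked in all 4 libraries, untreated was higher in this way at 16.1% and neomycin at 22.3%. None of the 7 partners passed limma (smallest adjusted p 0.737). At Psip1, for example, the relative lengths were 2.26 and 3.22 with neomycin and 2.70 and 0.821 without. The median log2 difference of the 7 was -0.24. Smyd2 alone was marked in each untreated and no neomycin library (1 of 21, against 4.66% of all genes), with 217 and 259 bp. Its peak lay downstream of the start in untreated replicate 1 and upstream of it in untreated replicate 2. Dpy30, Hcfc1, Ncoa6 and Smyd1 had no start-site peak in any library, although Dpy30, the remaining core subunit, had 2, 3, 1 and 1 peaks in the 4 libraries when its gene body and 1 kb flanks were counted.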

How the data were processed

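Each of the 4 H3K4me3 libraries has its own deposited peak list; titles in the labels gave the group and replicate. The submitters' processing notes name mm10 as the build and list CASAVA 1.4, Bowtie2, deepTools and MACS2, while settings and the treatment of the inputs are not given in those notes. Columns of the lists, per the file headers, are position, summit, length, pileup signal, fold enrichment (a ratio), and p and q on a -log10 scale. These are the authors' deposited values for single peaks; q served only to order and select peaks of the same list, and fold enrichment was not used. Positions are 1-based.

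The start site was the most upstream one of a RefSeq promoter table (GRCm38.p6), matched by gene ID for 17491 genes and 6 of the 10 members; the table has no entry used here for Kmt2b, Kmt2e, Setd1b and Ash2l. For these and 4392 genes in all, the gene end marked in more libraries was used, then the one with more peak bases, then the lower coordinate. A gene was marked when a peak overlapped the window of 1 kb either side by at least 1 bp. The log2 of summed peak length over the list's median was compared with limma 3.58.1 in R 4.3.3 without a replicate block, over genes marked in all 4 libraries, at a Benjamini-Hochberg adjusted p of 0.05. A single gene could not be tested by permutation, since 2 against 2 libraries allow no exact permutation p under 0.333. Both steps were tried on simulated data. The limma simulation gave every promoter the same normal spread and no shortest length, unlike these lists. It therefore does not show how limma performs on them. Assignment of peaks and figures used Python 3.11.15 with pandas 2.3.3, numpy 2.4.6 and matplotlib 3.10.9.

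Named genes were the 10 members and, of 21 partners, those marked in all 4 libraries, in 1 group alone or in none. Members and lists were chosen with earlier results of these data known. Alternatives covered the window, the peaks used, list length, covered bases, the choice of start, the scaling, genes marked in at least 1 library, a replicate block and each library left out.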

Additional observations from a re-analysis of the deposited data

How the results depend on the processing

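The count of promoters called by limma was 0 with the window of 2.5 kb, lists of equal length, covered bases, the gene-end start, centring, promoters marked in at least 1 library and each library left out (0 to 0). It was 1128 without scaling and 16 of 458 when at least 200 bp had to be covered. With a replicate block it was 0 of 3484 (smallest adjusted p 0.0731, against 0.422 without the block); deviations of same-numbered libraries had a correlation of -0.02 across promoters, so only a number is known to be shared.

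Members marked in all 4 libraries numbered 0 with 200 bp covered (2.09% of all genes) and 0 with -log10 q of at least 10 (0%). They numbered 3 with lists of equal length (10.9%) and 7 to 8 with each library left out (16.7% to 22.3%). Members with longer untreated marks numbered 0 with 200 bp covered (2.84% of promoters marked in all libraries used) and 1 with equal lists (15.6%). With a library left out they numbered 5 to 5 (19.8% to 35.7%). Leaving out a library cannot lower either of these member counts. With -log10 q of at least 10 no promoter was left to compare.

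Setd1a, Wdr5 and Rbbp5 changed sign. The log2 difference of Setd1a was -1.46 without scaling, and -0.70 without neomycin replicate 2 and -0.45 without untreated replicate 2 (range -0.70 to 1.18). For Wdr5 it was 0.14 with equal lists, 0.92 without neomycin replicate 2 and 0.60 without untreated replicate 1 (range -0.92 to 0.92), and for Rbbp5 0.12 without neomycin replicate 2 and 0.26 without untreated replicate 2 (range -0.37 to 0.26). None passed the threshold there. Without scaling, Kmt2a, Kmt2b, Kmt2c and Setd1b passed it, at -3.48, -3.18, -3.70 and -2.62. Kmt2b moved from -1.47 to -0.13 with equal lists, and Setd1b from -0.92 to -0.44 with the window of 2.5 kb and -1.37 with covered bases, with no change of sign. The cause was not tested. Peak lists carry no depth, and the shortest peak of a list limits how low a relative length can fall.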

Other observations

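Prdm9, the methyltransferase that places H3K4me3 at recombination hotspots in germ cells, had a start-site peak in 3 of the 4 libraries and was named after its values were seen. Its peaks summed to 105 and 159 bp in neomycin replicates 1 and 2 and to 268 bp in untreated replicate 1, and untreated replicate 2 had none. No other gene of the annotation lies within 1 kb of that start, on chromosome 17 at 15564354.

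The demethylase Kdm6a had 1, 3, 3 and 2 start-site peaks in the 4 libraries (neomycin 1, neomycin 2, untreated 1, untreated 2). They summed to 1.00, 3.67, 3.85 and 2.25 medians, so neomycin replicate 1 was low and neomycin replicate 2 lay between the untreated libraries. At Setd7 the relative lengths were 0.686, 4.15, 4.53 and 2.34 in the same order, again with neomycin replicate 1 alone low. At Paxip1 they were 0.686, 2.81, 1.57 and 1.71.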
